A study of Mus musculus with 20 samples.

Results

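The genes described here are 10 genes of cartilage and tendon around the transcription factor Sox9, out of 51826 genes in a count table of cultured mouse renal myofibroblasts. They are the transcription factors Sox9, Sox5, Sox6, Scx and Mkx, the matrix genes Acan, Comp, Cilp and Chad, and Tnmd, which encodes a tendon membrane protein. The set was selected by name for its place in cartilage and tendon and partly on measured values, since the loss of Tnmd in WWP2-/- cells was known when it was put together. Differences between genotypes in these 10 genes are therefore given as a description with no *P* value, and nothing is read from how many of them were called, whereas the response to TGFβ1, which played no part in the selection, was tested.

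Sox9 is the transcription factor that commits mesenchymal cells to cartilage. It binds DNA through a high mobility group domain and works with its relatives Sox5 and Sox6 on the enhancers of cartilage matrix genes, among them Acan, which encodes the large proteoglycan aggrecan. Scx, or scleraxis, is a basic helix-loop-helix factor of tendon progenitors, Mkx is a homeobox factor of tendon, and Tnmd, or tenomodulin, is a marker of mature tendon cells that depends on Scx in tendon. Comp encodes cartilage oligomeric matrix protein, a thrombospondin that binds collagen fibrils, Cilp encodes cartilage intermediate layer protein, which is also made by activated fibroblasts, and Chad encodes chondroadherin, a leucine-rich protein of cartilage. In the kidney, Sox9 is best known from tubular epithelial cells after injury, and several of these genes are also found in fibroblasts of organs without cartilage.

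The cells were primary myofibroblasts grown out of kidney pieces of C57BL/6J mice, either wild type (WT) or lacking WWP2, a ubiquitin ligase (WWP2-/-, labelled KO). Each genotype was sequenced as poly-A RNA with and without TGFβ1, a cytokine that activates myofibroblasts, which gave 4 groups of 5 libraries. The labels do not give the sex of the mice, the dose or time of TGFβ1, or whether libraries with 1 number share a culture, so the spread measured here is that between libraries.

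Libraries held between 47520759 and 73063697 counts, and values are given as CPM, which scale each count by its library's total. Where a gene had no count, up to 3 may have been missed, or between 0.0411 and 0.0631 CPM depending on the library, a limit for counting error only. Wwp2 was between 15.5 and 24.0 CPM in the 10 WWP2-/- libraries and between 46.7 and 61.6 CPM in the 10 WT libraries. All 10 fibroblast and myofibroblast markers examined reached 1 CPM in at least 1 library of each group. The libraries did not share 1 background, however. Xist, the RNA of an inactive X chromosome, and RNA of the Y chromosome divided them into 6 libraries with Xist above 1 CPM and no Y-linked RNA above that level, 9 with Y-linked RNA and no Xist, and 5 with both. Of the 10 WT libraries, 8 had Xist, and of the 10 WWP2-/- libraries, 3 had it, so that genotype and Xist were unevenly combined. Libraries with the same number could differ in this. In WT replicate 4 the untreated library had Y-linked RNA alone and the TGFβ1 library Xist alone, so these were not 1 culture. Pdgfra, a fibroblast receptor, was between 61.9 and 161 CPM in the 6 libraries with Xist alone and between 0.594 and 1.91 CPM in the 9 with Y-linked RNA alone. Postn was also higher with Xist alone, at 311 to 1877 CPM against 56.0 to 231 CPM. Fn1 ran the other way, at 3438 to 9425 CPM against 10129 to 45004 CPM. The other fibroblast and myofibroblast markers, Acta2 among them, overlapped in range between these types. A pair of WWP2-/- libraries, untreated replicate 3 and TGFβ1 replicate 1, stood apart further, with 39.7 and 49.0 CPM of the smooth muscle actin gene Acta2 against 945 CPM or more in the other 18.

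Only 3 of the 10 genes had a median above 5 TPM, a scale that also corrects for gene length and allows genes to be compared. Scx had the highest median level at 34.2 TPM, with a range over the 20 libraries from 1.54 to 118. Sox9 followed at 22.1 TPM, with a range from 2.03 to 50.2. Mkx had a median of 8.68 TPM and ranged from 2.25 to 45.2. These 3 factors overlapped widely in range, so their order held for medians and not for every library. Comp, Sox5 and Sox6 followed at medians of 1.39, 1.32 and 0.844 TPM. Chad was at 0.553 TPM, and Tnmd and Cilp were at 0.0967 and 0.0750 TPM over all libraries, both with ranges that reached above 4 TPM. Acan was close to undetected at a median of 0.00868 TPM, with 31 counts in all 20 libraries together. The 5 factors thus had higher median TPM than the matrix genes Acan, Chad and Cilp.

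**Figure D1:**
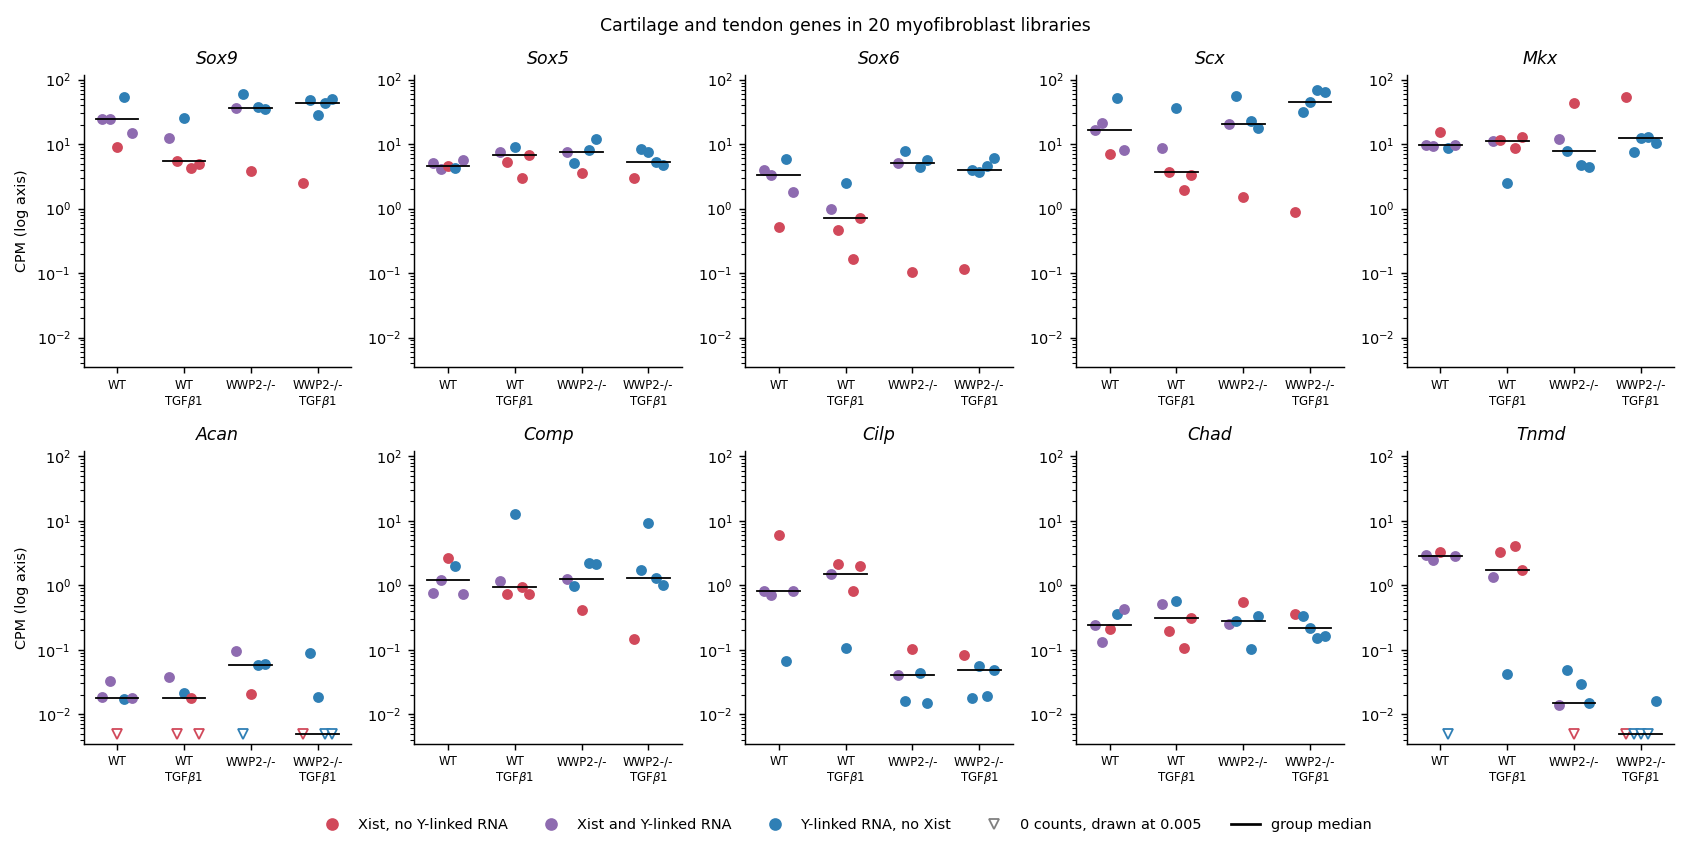
Level of each of the 10 genes in CPM on a log axis, 1 point per library in 4 groups of 5, with the group median as a line and colours for libraries with Xist alone, Xist and Y-linked RNA, or Y-linked RNA alone. In Sox9, Sox6 and Scx the libraries with Xist alone lie at the bottom of every group, whereas Tnmd and Cilp are above 0.7 CPM only in WT libraries with Xist.

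Sox9 (ENSMUSG00000000567) lies on chromosome 11 of GRCm38 from 112782224 to 112787760 on the plus strand. In untreated WT libraries it was at 24.9, 24.8, 8.94, 53.1 and 15 CPM in replicates 1 to 5. With TGFβ1, WT libraries had 12.3, 5.52, 25.3, 4.31 and 4.89 CPM. Of these 5, 4 lay below all untreated WT libraries or all but 1, and the other, replicate 3, was close to the median of the untreated. Untreated WWP2-/- libraries had 35.8, 59.6, 3.78, 38.0 and 34.5 CPM, and those with TGFβ1 had 2.45, 48.2, 28.8, 43.6 and 50.4 CPM. In each WWP2-/- group, 4 libraries were high and 1 was lower than every WT library of any group.

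Sox6 (ENSMUSG00000051910, chromosome 7, 115470872 to 116038796, minus strand), the partner of Sox9 on cartilage enhancers, ordered the libraries in nearly the same way at lower levels. Untreated WT libraries had 3.94, 3.28, 0.514, 5.85 and 1.78 CPM, and WT libraries with TGFβ1 had 0.979, 0.468, 2.50, 0.162 and 0.721 CPM. In WWP2-/- libraries Sox6 was at 5.08, 7.75, 0.103, 4.36 and 5.77 CPM untreated and at 0.114, 3.92, 3.64, 4.64 and 6.10 CPM with TGFβ1. The lowest library of each of the WWP2-/- groups was the one that was also lowest for Sox9.

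Scx (ENSMUSG00000034161, chromosome 15, 76457452 to 76459458, plus strand) lies within the Bop1 gene on the other strand and shares no exon base with it in the annotation. This tendon factor was at 16.5, 21, 7.10, 52.5 and 8.19 CPM in untreated WT libraries and at 8.70, 3.67, 36.0, 1.93 and 3.37 CPM in WT libraries with TGFβ1. WWP2-/- libraries had 20.3, 55.1, 1.52, 23.2 and 17.5 CPM untreated and 0.899, 31.6, 45.1, 69.0 and 63.4 CPM with TGFβ1. The groups overlapped, and the same pair of WWP2-/- libraries held the lowest values.

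Over the 20 libraries, Sox9, Sox6 and Scx were arranged by Xist and Y-linked RNA. Sox9 was between 2.45 and 8.94 CPM in the 6 libraries with Xist alone, between 12.3 and 35.8 CPM in the 5 with both, and between 25.3 and 59.6 CPM in the 9 with Y-linked RNA alone. Scx was between 0.899 and 7.10, between 8.19 and 21, and between 17.5 and 69.0 CPM in the same order. Sox6 was between 0.103 and 0.721, between 0.979 and 5.08, and between 2.50 and 7.75 CPM. The libraries with Xist alone did not overlap with the other 14 for any of the 3 genes, and this held in WT and in WWP2-/- libraries. In WWP2-/-, however, these were only the 2 libraries low in Acta2, so library type and low Acta2 cannot be told apart there. The 1 WWP2-/- library with both lay within the range of the 7 with Y-linked RNA alone for all 3 genes. For Sox9 it was at 35.8 CPM against 28.8 to 59.6 CPM. Sox8, the closest relative of Sox9, had the same arrangement, with 1.58 to 5.13, 8.37 to 32.6 and 31.8 to 65.4 CPM.

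**Figure D2:**
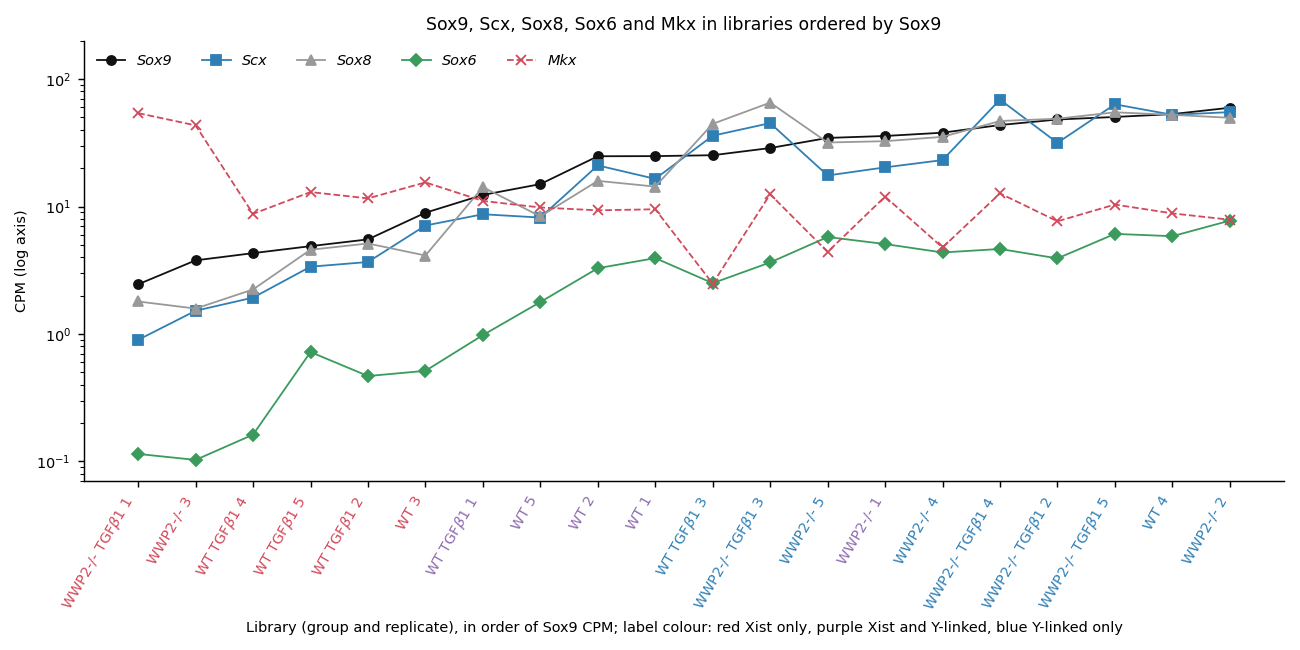
CPM on a log axis of Sox9, Scx, Sox8, Sox6 and Mkx in the 20 libraries, ordered by Sox9 and named by group and replicate, with label colours for Xist alone, Xist and Y-linked RNA, or Y-linked RNA alone. Scx, Sox8 and Sox6 climb with Sox9 from the libraries with Xist alone to those with Y-linked RNA, whereas Mkx is highest at the left, at 54.1 and 43.3 CPM.

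Likeness to Sox9 was described by Pearson's correlation of log2 CPM over the 20 libraries among 13533 genes with a mean of at least 1 CPM, values that share library totals and the division by Xist. Sox6 stood at rank 14 (r = 0.969), Scx at rank 32 (r = 0.964) and Sox8 at rank 64 (r = 0.953). The 5 genes most like Sox9 were Adgra1 (r = 0.987), Tinag (0.982), Mgat4a (0.978), Epor (0.974) and Akr1c12 (0.973), none of them a member of the cartilage or tendon lists. After the 4 group means were removed, the leading genes were Sh3tc2 (0.993), Cadm1 (0.991), Adgra1 (0.990), Spns3 (0.988) and Klhdc7a (0.988), and Sox6 and Scx kept correlations of 0.965 and 0.976. The third Sox factor of cartilage, Sox5, was far less alike, with r = 0.377, and Mkx ran the other way with r = -0.690, or -0.883 with the group means removed.

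The summed markers of other kidney cells moved with Sox9, Sox6 and Scx. The summed level of 10 tubular epithelial markers was between 2.50 and 8.52 CPM in the 6 libraries with Xist alone, against 26.6 to 91.9 CPM in the 5 with both and 31.7 to 166 CPM in the 9 with Y-linked RNA alone. Within that list, 6 of 10 markers reached 1 CPM, led by Lrp2 and Krt8, whereas the segment markers Slc34a1, Umod, Slc12a3 and Aqp2 stayed at 0.270 CPM or less in all 20 libraries. Slc12a1, another segment marker, was found in both types. It was at 0.162 to 3.43 CPM with Xist alone and 1.07 to 4.78 CPM with Y-linked RNA alone, so that these ranges overlapped. The sum of 10 macrophage markers was between 56.5 and 287 CPM with Xist alone and between 277 and 4377 CPM with Y-linked RNA alone. The endothelial sum was between 10.1 and 34.3 CPM with Xist alone and between 19.2 and 214 CPM with Y-linked RNA alone, although Kdr (2.40 to 8.33 against 0.439 to 3.08 CPM) and Tek (1.41 to 17.2 against 0.727 to 1.92 CPM) ran the other way. The part of these cell types in the levels of Sox9, Sox6 and Scx was not tested, and in RNA of whole cultures fewer cells of a type and less RNA per cell cannot be told apart.

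Sox5 (ENSMUSG00000041540, chromosome 6, 143828425 to 144781977, minus strand) had the smallest ratio of highest to lowest level among the 5 factors. Over all 20 libraries it was between 2.97 and 12.1 CPM, with a median of 5.35. By group the means were 4.74 ± 0.661 CPM (SD, n = 5) in untreated WT, 6.34 ± 2.32 in WT with TGFβ1, 7.31 ± 3.27 in untreated WWP2-/- and 5.79 ± 2.16 in WWP2-/- with TGFβ1. All groups overlapped. An antisense gene, Sox5os1, covers 9.25% of its exon bases, and since the sources do not state that strand was used in counting, reads there cannot be assigned to 1 of the pair.

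Tnmd (ENSMUSG00000031250) was the gene of this set with the widest difference between genotypes, which is the value it was chosen for. Untreated WT libraries had 2.91, 2.50, 3.23, 0 and 2.83 CPM in replicates 1 to 5. With TGFβ1, WT libraries had 1.33, 3.26, 0.0421, 4 and 1.71 CPM. In each WT group, 4 libraries thus held Tnmd and 1 had next to none. Among the 10 WWP2-/- libraries, Tnmd had 0 counts in 5 and at most 3 counts in any, with a highest level of 0.0485 CPM. Pooled over the untreated libraries there were 638 counts in WT and 7 in WWP2-/-, a ratio of pooled CPM of 102 with an exact 95% interval from 49.5 to 256 for counting error only. With TGFβ1 there were 569 counts in WT and 1 in WWP2-/-, a ratio of 611 with an interval from 109 to 24180.

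The WT libraries without Tnmd were those without Xist. In the 8 WT libraries with Xist, Tnmd was between 1.33 and 4 CPM, and in the 2 WT libraries without Xist it was at 0 and 0.0421 CPM. Among WWP2-/- libraries, the 3 with Xist had at most 1 count, with values up to 0.0137 CPM, and the 7 without Xist had up to 0.0485 CPM. Among libraries with Xist, the 3 of WWP2-/- thus lay below all 8 of WT, and 2 of these 3 are the libraries low in Acta2. The third, untreated replicate 1, had 35.5 CPM of Xist and 220 CPM of Y-linked RNA. In the 8 WT libraries Xist was between 110 and 225 CPM, so genotype and library type cannot be told apart in this comparison. Among libraries without Xist, both genotypes were at or below the level that a count of 0 allows, and a difference between them was not detectable at this depth. Tnmd itself lies on the X chromosome, from 133850980 to 133865577 on the plus strand, and Sox9 was at 25.3 and 53.1 CPM in the 2 WT libraries that lacked Tnmd.

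**Figure D3:**
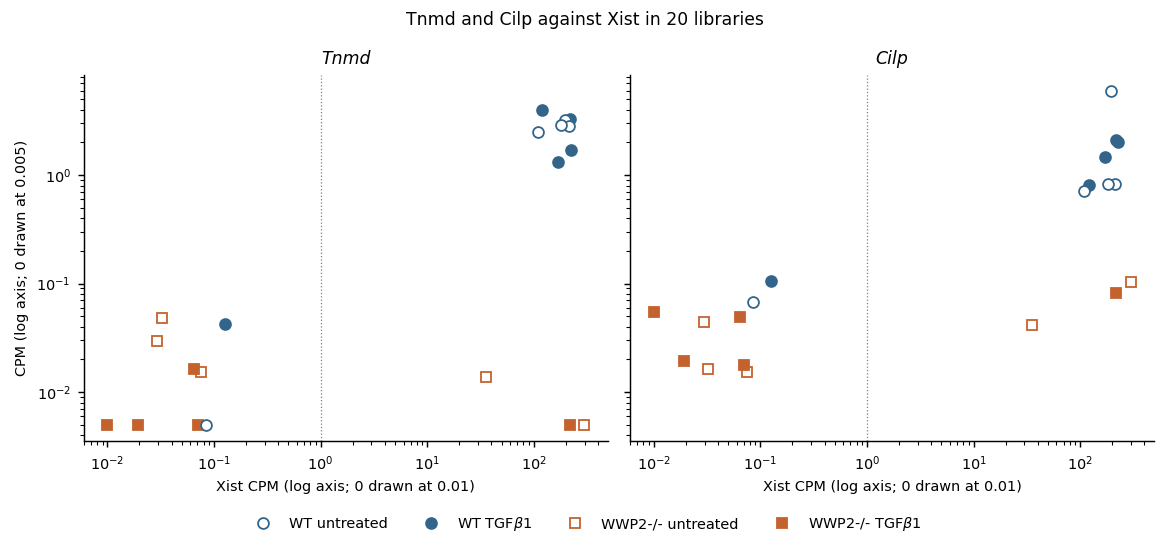
Tnmd (left) and Cilp (right) against Xist, all in CPM on log axes, 1 point per library, with circles for WT, squares for WWP2-/-, filled symbols for TGFβ1 and a dotted line at 1 CPM of Xist. The 8 WT libraries with Xist stand at the upper right, above the 2 WT libraries without Xist and above all 10 WWP2-/- libraries.

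Over the 20 libraries the pattern of Tnmd was most like that of Apba2 (r = 0.990), A730020M07Rik (0.988), Sfrp1 (0.980), Ptn (0.979) and Col28a1 (0.979). Sfrp1 encodes a secreted antagonist of Wnt signals, Ptn the growth factor pleiotrophin and Col28a1 a collagen chain. With the group means removed, Apba2 (0.980), A730020M07Rik (0.970), Cpxm2 (0.962), Fxyd1 (0.960) and Sfrp1 (0.957) led. Scx, on which Tnmd depends in tendon, was not among the genes like it here, with r = -0.393 over the 20 libraries.

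The sequence before the start of Tnmd and that of Cilp are shown because these 2 genes had the widest differences between genotypes and both were low in the same 2 WT libraries. Both are from RefSeq on GRCm38.p6, plus strand, written 5′ to 3′ and ending 1 base before the first annotated start, at chrX:133850758-133850979 for Tnmd and chr9:65264930-65265179 for Cilp. Capitals mark the E-box, CANNTG, the hexamer that helix-loop-helix factors such as Scx bind, which reads the same on both strands.
Tnmd: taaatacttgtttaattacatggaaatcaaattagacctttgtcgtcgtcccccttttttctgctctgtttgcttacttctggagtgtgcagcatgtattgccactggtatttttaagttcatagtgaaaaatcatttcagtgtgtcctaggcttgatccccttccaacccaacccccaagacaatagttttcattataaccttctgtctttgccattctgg
Cilp: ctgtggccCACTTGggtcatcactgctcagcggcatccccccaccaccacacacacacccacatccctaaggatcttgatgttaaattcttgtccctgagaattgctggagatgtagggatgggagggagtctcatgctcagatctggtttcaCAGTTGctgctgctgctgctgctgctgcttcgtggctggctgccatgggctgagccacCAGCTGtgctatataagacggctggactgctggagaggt
The 222 bases of Tnmd held 0 E-boxes and 1 match to ACAAT, a core of the sites that Sox factors bind, searched on both strands. The 250 bases of Cilp held 3 E-boxes and 0 matches to ACAAT. Among 32851 RefSeq promoters, 66.2% had an E-box and 27.7% had ACAAT in the 250 bases before the start. Of the other members, Sox5, Sox6, Acan and Chad had promoter entries, and of these 4 only Sox5 had no E-box in its 250 bases.

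Cilp (ENSMUSG00000042254, chromosome 9, 65265180 to 65280605, plus strand) had the second widest difference. Untreated WT libraries had 0.821, 0.718, 5.92, 0.0678 and 0.819 CPM, and WT libraries with TGFβ1 had 1.48, 2.12, 0.105, 0.811 and 2.02 CPM. Untreated WWP2-/- libraries had 0.0411, 0.0162, 0.103, 0.0440 and 0.0151 CPM, and those with TGFβ1 had 0.0818, 0.0176, 0.0549, 0.0193 and 0.0488 CPM. No WWP2-/- library held more than 5 counts. Untreated, the pooled counts were 449 in WT and 13 in WWP2-/-, a ratio of 38.8 with an exact 95% interval from 22.5 to 73.5 for counting error only. With TGFβ1 they were 357 and 13, a ratio of 29.5 with an interval of the same kind from 17.0 to 55.9. WT replicate 3 alone held 311 of the 449 untreated counts. Without it the untreated ratio was 14.7, outside the untreated interval, and the fitted log2 fold change -3.87. As for Tnmd, the 2 WT libraries without Xist were the low ones, at 0.0678 and 0.105 CPM against 0.718 to 5.92 CPM in the 8 WT libraries with Xist. The 3 WWP2-/- libraries with Xist, at 0.0411 to 0.103 CPM, lay below all 8 of these. As for Tnmd, 2 of the 3 are the libraries low in Acta2 and the third had 35.5 CPM of Xist. Genotype and library type cannot be told apart here either.

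Mkx (ENSMUSG00000061013), the homeobox factor of tendon, was set apart by the pair of WWP2-/- libraries low in Acta2. It was at 43.3 CPM in untreated WWP2-/- replicate 3 and at 54.1 CPM in WWP2-/- TGFβ1 replicate 1. The other untreated WWP2-/- libraries had 12.0, 7.88, 4.77 and 4.40 CPM, and the others with TGFβ1 had 7.66, 12.5, 12.7 and 10.4 CPM. WT libraries were between 2.48 and 15.5 CPM, so that without this pair the genotypes covered much the same range. These libraries had the highest Mkx and the lowest Sox9, Scx and Comp of all 20.

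Comp (ENSMUSG00000031849, chromosome 8, 70373558 to 70382066, plus strand) was high in 1 library of each TGFβ1 group, at 12.7 CPM in WT replicate 3 and 9.19 CPM in WWP2-/- replicate 3. The other 18 libraries were between 0.147 and 2.64 CPM. Both high libraries had Y-linked RNA and no Xist, yet the other 7 libraries of that kind were within the range of the rest. Chad (ENSMUSG00000039084, chromosome 11, 94565047 to 94569127, plus strand) was low and even, between 0.103 and 0.568 CPM, or 6 to 27 counts per library. Its locus overlaps that of Acsf2 without a shared exon base.

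Acan (ENSMUSG00000030607, chromosome 7, 79053483 to 79115099, plus strand), the main proteoglycan of cartilage and a classic target of Sox9, had 0 counts in 7 libraries and at most 7 in any. Its highest level was 0.0958 CPM, in untreated WWP2-/- replicate 1, where Sox9 was at 35.8 CPM. In the 20 libraries together there were 9 Acan counts in WT and 22 in WWP2-/-, too few for the test. Of the 10 genes, 9 had at least 5 counts in at least 5 libraries and were tested among 20407 genes, and Acan was the 1 left out.

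For the comparison of genotypes, WWP2-/- was set against WT with edgeR's quasi-likelihood test on all 20 libraries, with TGFβ1 and untreated. With TGFβ1, 6.07% of all genes tested were called at an adjusted *P* of 0.05, 3.96% as lower in WWP2-/- and 2.1% as higher. Of the 9 genes, 2 were called, Tnmd and Cilp, both lower, as the choice of the set implies, and nothing is read from that count. Untreated, 0.725% of all genes were called, 0.622% as lower, and again Tnmd and Cilp were the 2 called. The untreated calls of the 9 depended on single libraries, as did those over all genes. Of the 9, 0 were called when WT replicate 1, 3 or 5 was left out. The same held for replicates 1, 4 and 5 of WWP2-/-, and 1 was called when its replicate 2 was left out. Over all 20407 genes, the 148 calls fell to 13 in the fit lacking WT replicate 1 and to 69 in that lacking WWP2-/- replicate 2. They fell to 1 in each other fit just named. The lost calls were therefore not specific to these genes. With 1 library left out, the fitted log2 fold change stayed between -7.14 and -6.45 for Tnmd and between -5.86 and -3.87 for Cilp. In 5.67% of all genes the 5 libraries of each genotype did not overlap with TGFβ1, and Tnmd and Cilp were the 2 of the 9 without overlap. That gap could not be detected at this depth for either gene alone, since WT replicate 3 had 2 counts of Tnmd against at most 1 in a WWP2-/- library and 5 counts of Cilp against at most 5. Untreated, 2.79% of all genes did not overlap and 0 of the 9 did, since WT replicate 4 was at the WWP2-/- level for both Tnmd and Cilp.

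The fitted log2 fold change of Tnmd was -8.70 (SE 1.46) with TGFβ1 and -6.68 (SE 1.22) untreated, values that depend on how counts near 0 are treated and are not bounds. That of Cilp was -4.95 (SE 1.04) with TGFβ1 and -5.36 (SE 1.05) untreated. Scx, Sox6 and Sox9 had positive values with TGFβ1, at 1.93 (SE 0.932), 1.84 (SE 0.885) and 1.64 (SE 0.687). Untreated, their values were 0.12, 0.55 and 0.40, each smaller than its SE. Mkx had 0.93 with TGFβ1 and 0.38 untreated, and Comp was at -0.19 and -0.13.

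These values depended on Xist, which was unevenly spread over the genotypes. With the log2 level of Xist as a covariate, the value with TGFβ1 fell from 1.64 to 0.12 for Sox9 (SE 0.542) and from 1.93 to 0.08 for Scx (SE 0.709). Untreated, the sign turned to -0.66 for Sox9, -0.73 for Sox6 and -1.33 for Scx. Tnmd kept its direction at -6.77 with TGFβ1 and -4.47 untreated, and so did Cilp at -2.86 and -3.84. No WWP2-/- library, with or without Xist, had more than 3 counts of Tnmd or 5 of Cilp. The kept direction therefore cannot separate genotype from library type for these genes. Mkx was at 1.90 with TGFβ1. Without the 2 WWP2-/- libraries low in Acta2, an alternative chosen after seeing the data, Mkx with TGFβ1 fell from 0.93 to 0.04, and Sox9, Scx and Sox6 were at 1.92, 2.22 and 2.15. Without WT TGFβ1 replicate 3 alone, Scx was at 3.08.

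**Figure D4:**
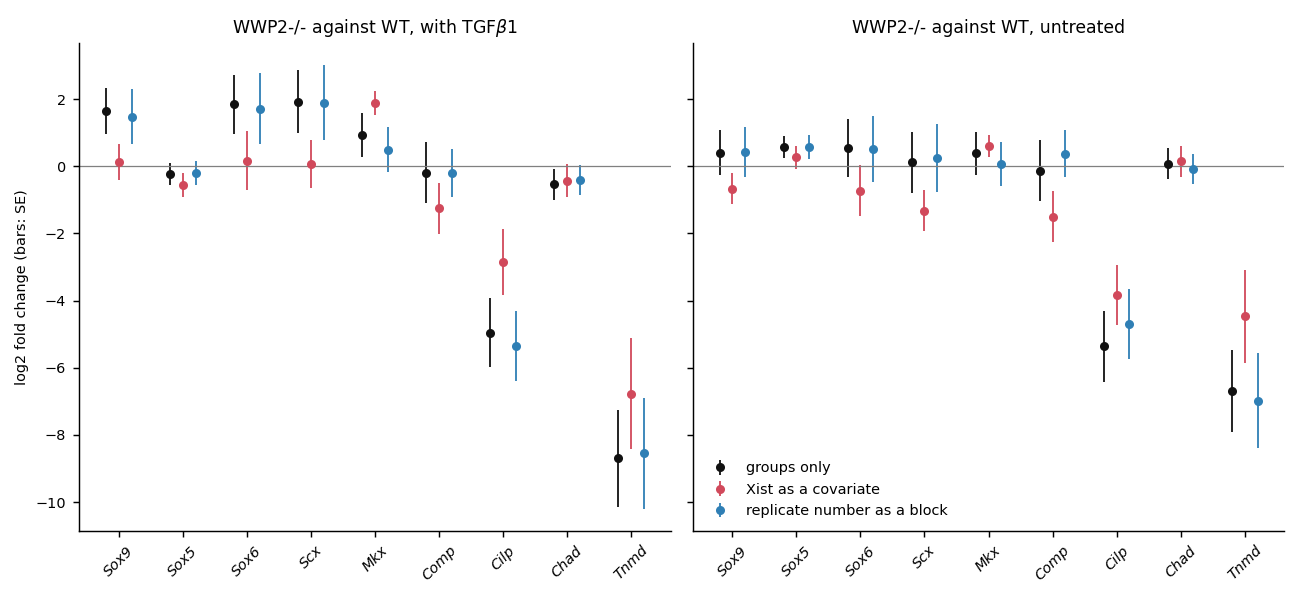
Log2 fold change of WWP2-/- against WT for the 9 genes tested, with TGFβ1 (left) and untreated (right), from fits with groups only, with Xist as a covariate and with the replicate number as a block, bars showing the SE. Tnmd and Cilp, with next to no counts in every WWP2-/- library, lie below -2 in every fit. Sox9, Sox6 and Scx move to values near or below 0 once Xist is in the model.

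The response to TGFβ1 was not used to choose the genes. In WT cells, 0 of the 9 were called, where 0% of 20407 genes tested were called. Tnmd and Cilp passed the filter through WT libraries, with 8 and 26 counts over the 10 WWP2-/- libraries, so their response in WWP2-/- and their interaction could show nothing and are left out. In WWP2-/- cells, 0 of the other 7 were called, and the share of all genes was also 0%. The same test left 1397 genes in WT and 713 in WWP2-/- at an unadjusted *P* below 0.05. Among these were 0 of the 9 in WT and 0 of the other 7 in WWP2-/-. DESeq2's Wald test called 27 and 49 genes, again with 0 of the 9 in WT and 0 of the 7 in WWP2-/-. In WT, Sox6 had a log2 fold change of -1.59 with a 95% interval from -3.44 to 0.25 (edgeR adjusted *P* = 0.812), and Sox9 had -1.20, from -2.63 to 0.23 (adjusted *P* = 0.818). Both intervals hold a fall of more than 2 log2 units as well as no change. Scx was at -0.92 (interval -2.83 to 0.98) in WT and at 0.89 (-1.01 to 2.79) in WWP2-/-. Its value in WT was -2.07 without TGFβ1 replicate 3 and -0.32 without untreated replicate 4, and that in WWP2-/- was between 0.58 and 1.43, without untreated replicates 3 and 2. Sox9 in WT was at -0.79 without untreated replicate 4. Comp had the highest positive value in each genotype, 1.12 (-0.82 to 3.05) in WT and 1.06 (-0.87 to 2.99) in WWP2-/-, each of which rested on 1 library. Without replicate 3 of the TGFβ1 group, Comp was at -0.59 in WT and, without that of WWP2-/-, at -0.47 there.

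Whether the response differed between genotypes was tested by the interaction of genotype and TGFβ1. It called 0% of all genes, with 1424 at an unadjusted *P* below 0.05 and 10 called by DESeq2, and 0 of the 7 genes in any of these counts. Scx had an interaction of 1.81 on the log2 scale (95% interval -0.88 to 4.50, edgeR adjusted *P* = 0.865), and Sox6 and Sox9 had 1.30 (-1.25 to 3.84) and 1.24 (-0.75 to 3.23). That of Scx was 2.96 without WT TGFβ1 replicate 3 and 1.20 without untreated WT replicate 4. Since the WT group with TGFβ1 held 3 libraries with Xist alone and the other groups 1 each, response and library type cannot be told apart for these 3 genes.

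**Figure D5:**
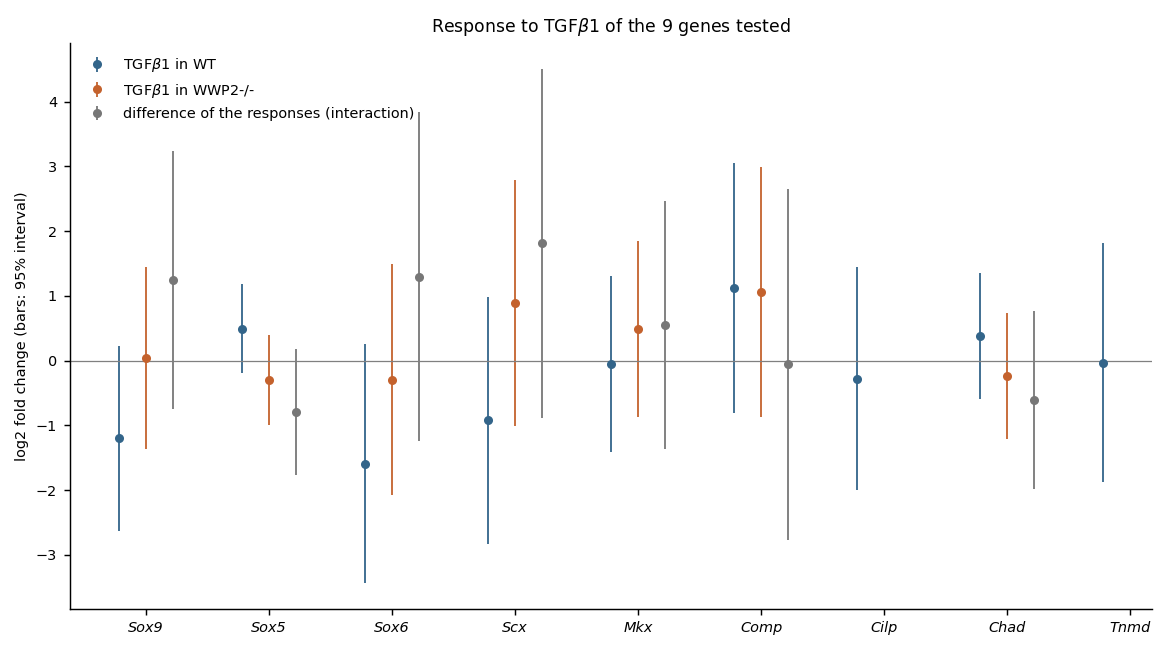
Log2 fold change with TGFβ1 against untreated for the 9 genes tested in WT and in WWP2-/-, and the difference of these responses, with 95% intervals from the fit of all 20 libraries. Tnmd and Cilp are drawn for WT only, and every interval includes 0.

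Other genes of the same tissues were taken from lists of 31 cartilage genes and 23 tendon genes, drawn up with earlier results of these data known. Of 23 cartilage genes tested, 5 were lower in WWP2-/- with TGFβ1 and 0 higher, and 2 were lower untreated, where 3.96% and 0.622% of all genes were lower. The median log2 fold change of the list was -0.44 with TGFβ1 and -0.45 untreated, against 0.05 and 0.08 over all genes tested. With 1 library left out at a time, between 2 and 7 of the 23 were called with TGFβ1 and between 0 and 3 untreated. Of all 20407 genes, between 464 and 2702 and between 1 and 744 were called in these fits. Matn4, which encodes the matrix protein matrilin 4, was lower in both, with log2 fold changes of -2.73 (SE 0.555, edgeR adjusted *P* = 0.0121) and -3.39 (SE 0.570, adjusted *P* = 0.0214). Col27a1, a fibrillar collagen gene that Sox9 regulates in cartilage, was lower untreated, at 3.37 ± 1.33 CPM against 10.2 ± 1.82 in WT (SD, n = 5, edgeR adjusted *P* = 0.0255). The others called with TGFβ1 were Col9a2, Epyc, Matn3 and Nkx3-2, named after their values were seen and all under 1 CPM on average over both genotypes. The cartilage collagen Col2a1, the best known target of Sox9, was not called and had group medians between 0.234 and 5.31 CPM. Like Sox9, it was lower in the 6 libraries with Xist alone, at 0.0617 to 0.419 CPM. It was at 0.267 to 7.37 CPM in the 5 with both and 0.829 to 23.5 CPM in the 9 with Y-linked RNA alone.

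Of 20 tendon genes tested, 4 were lower and 1 was higher in WWP2-/- with TGFβ1, and 1 was lower untreated, against shares over all genes of 3.96% lower and 2.1% higher with TGFβ1 and 0.622% lower untreated. Their median log2 fold change was -1.44 with TGFβ1 and -0.80 untreated, with 0.05 and 0.08 over all genes. With 1 library left out at a time, between 1 and 10 were called with TGFβ1 and between 0 and 4 untreated. Calls over all genes ranged from 464 to 2702 and from 1 to 744 in these fits. Aspn, which encodes asporin, a small proteoglycan of collagen fibrils, had a log2 fold change of -6.14 (SE 1.24, edgeR adjusted *P* = 0.0121) with TGFβ1 and of -7.68 (SE 1.34, adjusted *P* = 0.0214) untreated. Col14a1, which encodes a collagen on the surface of fibrils, had -3.97 with TGFβ1, at 17.9 ± 19 CPM against 264 ± 78.3 in WT (SD, n = 5, edgeR adjusted *P* = 0.0379). Fmod, the gene of fibromodulin, had -3.31 (edgeR adjusted *P* = 0.0341), and Col12a1, named after its values were seen, was the fourth. Egr2, a zinc finger factor of the tendon programme, was the gene that was higher, with 1.78 (SE 0.448, edgeR adjusted *P* = 0.0277). Eya2, another tendon list gene, resembled Sox9 instead, with 0.523 to 6.40 CPM in the 6 libraries with Xist alone and 16.0 to 59.0 CPM in the 9 with Y-linked RNA alone. With Xist as a covariate, 1 cartilage and 3 tendon genes were called with TGFβ1, where 630 of all 20407 genes were. Aspn was then at -3.22 (edgeR adjusted *P* = 0.188). No gene of either list was called in the response to TGFβ1 or in the interaction.

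Of 14 relatives of the 10 genes, such as Sox8 and the thrombospondins, 11 were tested, and 2 were called between genotypes with TGFβ1, where 6.07% of all genes were. Thbs3, a thrombospondin gene like Comp, was lower in WWP2-/- at -0.75 (SE 0.195, edgeR adjusted *P* = 0.0306). Vcan, which encodes versican, a proteoglycan related to aggrecan, was higher at 2.61 (SE 0.556, edgeR adjusted *P* = 0.0138). Its mean level with TGFβ1 was 316 ± 271 CPM against 49.9 ± 17.7 in WT (SD, n = 5). Untreated, 0 of the 11 were called.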

How the data were processed

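Poly-A RNA of 20 libraries of primary renal myofibroblasts, 5 for each combination of genotype and TGFβ1 treatment, was measured by paired-end sequencing. The authors aligned reads to GRCm38 (mm10) with STAR and deposited counts per gene on exons from featureCounts, without normalization, and the sources used here do not state whether strand was used. Groups and replicate numbers were taken from the sample labels, and no pair of libraries was identical.

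Ensembl identifiers were named with GENCODE M21 on GRCm38, which named 51633 of 51826 genes and all genes of the lists. CPM used the total of each library, TPM used the union of exon lengths. The 20407 genes that reached 5 counts in 5 or more libraries were normalized by TMM and fitted with edgeR 4.0.16 in R 4.3.3 (glmQLFit and glmQLFTest, 4 groups, no block), and *P* values were adjusted by Benjamini–Hochberg over all genes tested. A gene was called at an adjusted *P* below 0.05. Exact intervals of pooled ratios are binomial at 95% and leave out the spread between libraries. Sequences came from RefSeq's promoter table. The fit was tested on simulated data.

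The 10 genes, the lists of cartilage, tendon, related and cell type marker genes, and the tests were chosen with earlier results of these data known. All 10 genes are named. From the cartilage and tendon lists, up to 3 called genes with the highest and 3 with the lowest log2 fold change per comparison and a mean of at least 1 CPM are named, with exceptions stated. The 5 genes most like Sox9 and Tnmd by Pearson's correlation are also named. Alternatives were DESeq2 1.42.0 size factors and Wald test, the replicate number as a block, no filter, a minimum of 10 counts in each library, log2(CPM + 1) of Xist as a covariate, a fit of only the groups compared, and each library left out. Leaving out 2 WWP2-/- libraries low in Acta2, or 2 WT libraries without Xist, was added after seeing the data.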

Additional observations from a re-analysis of the deposited data

Results flagged for a closer look

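In groups of 5 libraries, Dixon's criterion marked a library far from the others in 10 of 40 combinations of gene and group. Its rate of about 1 in 20 holds for independent, normally distributed values. Genes near 0 CPM and genes that share libraries do not meet this, so nothing is read from the number of marks. Mkx was marked in untreated WWP2-/- replicate 3 at 43.3 CPM and in WWP2-/- TGFβ1 replicate 1 at 54.1 CPM, the pair low in Acta2, and in untreated WT replicate 3 at 15.5 CPM against 8.84 to 9.83 CPM in the other 4. Comp was marked in WT TGFβ1 replicate 3 at 12.7 CPM and in WWP2-/- TGFβ1 replicate 3 at 9.19 CPM. Scx was marked in the same WT library at 36.0 CPM against 1.93 to 8.70 CPM in the other 4, and this library was the only one of its group without Xist. Tnmd was marked in untreated WT replicate 4 at 0 CPM against 2.50 to 3.23 CPM, also the only library of its group without Xist. Cilp was marked in untreated WT replicate 3 at 5.92 CPM, which had the lowest Sox9 of its group. The marks for Acan in WWP2-/- TGFβ1 replicate 2 at 0.0882 CPM and for Tnmd in WWP2-/- TGFβ1 replicate 5 at 0.0163 CPM rest on 5 counts and 1 count. The part of library type in these values was not tested.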

How the results depend on the processing

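For the 9 genes tested, the count called in the response to TGFβ1 in WT stayed at 0 under every alternative. In WWP2-/- and in the interaction it also stayed at 0. Tnmd and Cilp could show nothing in these 2 comparisons, so this count speaks only for the other genes. Between genotypes with TGFβ1, the 2 calls became 0 with a filter of 10 counts in every library, which removes Tnmd and Cilp, 5 without the 2 WWP2-/- libraries low in Acta2, 4 without the 2 WT libraries with no Xist, and between 2 and 3 with each library left out. Over all genes, the 1238 calls with TGFβ1 became 1064 of 13768 with that filter, 670 with the replicate block and 630 with Xist as a covariate. They were 569 with only the groups compared and 2672 with the Wald test. In the 2 exclusions they were 3454 and 3314, and with a library left out between 464 and 2702. Untreated, the 2 calls became 0 with that filter, with the replicate block, with Xist as a covariate and with only the groups compared, and between 0 and 2 with each library left out. Over all genes, the 148 untreated calls became 112, 1, 82 and 1 in these 4 settings, in the same order. They were 743 with the Wald test, 270 and 1103 in the 2 exclusions, and between 1 and 744 with a library left out. Same-numbered libraries did not deviate together (correlations from -0.522 to 0.443), so the block marks a number only.

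For cartilage genes with TGFβ1, 5 calls became 1 with the filter of 10 counts or with Xist as a covariate, 2 with the replicate block or only the groups compared, 9 without the 2 libraries low in Acta2, and between 2 and 7 with a library left out, lowest without WWP2-/- TGFβ1 replicate 2 or 4 or WT TGFβ1 replicate 2, 4 or 5 and highest without WT TGFβ1 replicate 3. Untreated, 2 became 0 with the block or only the groups compared, 4 with the Wald test or without the 2 libraries low in Acta2, 5 without the 2 WT libraries with no Xist, and between 0 and 3 with a library left out. For tendon genes with TGFβ1, 5 became 2 with the block, 3 with Xist or only the groups compared, 11 with the Wald test, 14 and 9 in the same 2 exclusions, and between 1 (without WT TGFβ1 replicate 2) and 10 (without WWP2-/- TGFβ1 replicate 1) with a library left out. Untreated, 1 became 0 with the filter, the block, Xist or only the groups compared, 6 with the Wald test, 3 and 5 in the exclusions, and between 0 and 4 with a library left out.

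The following directions turned, and none of these values was called in the fit of all libraries. With Xist, the untreated genotype values were -0.66 for Sox9, -0.73 for Sox6 and -1.33 for Scx, and Sox9 with TGFβ1 in WWP2-/- was -0.46. Mkx untreated was -0.68 without the 2 libraries low in Acta2. Comp between genotypes was 0.11 with TGFβ1 and 0.09 untreated without these libraries, 1.52 with TGFβ1 without the 2 WT libraries, and 0.37 untreated with the block. Its TGFβ1 response was -0.53 in WT without the 2 WT libraries and -0.19 in WWP2-/- with the block. With a library left out, untreated genotype values were between -0.44 and 0.72 for Scx, -0.64 and 0.61 for Mkx and -0.38 and 0.23 for Comp, and Comp with TGFβ1 was between -1.73 and 1.52. Under the same exclusions, the TGFβ1 response in WWP2-/- was between -0.25 and 0.35 for Sox9, -0.61 and 0.02 for Sox6 and -0.47 and 1.38 for Comp, and in WT between -0.59 and 1.49 for Comp. The cause was not tested. Depth limits Acan, Chad, and Tnmd and Cilp in WWP2-/-, each at 27 counts or fewer per library.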
